A study of Homo sapiens with 60 samples.

Results

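Aminoacyl-tRNA synthetases were followed in A549 cells, a human lung carcinoma line, after treatment with extracts of herbal drugs. The set was chosen by name and comprised 36 of the 60675 genes in the deposited table. It held 20 cytosolic enzymes and 16 mitochondrial enzymes, each matched to 1 Ensembl identifier, with older symbols without the final 1 counted as the same gene. The members were AARS1, CARS1, EPRS1, FARSA, FARSB, GARS1, HARS1, IARS1, KARS1, LARS1, MARS1, NARS1, QARS1, RARS1, SARS1, TARS1, TARS3, VARS1, WARS1 and YARS1 in the cytosol, and AARS2, CARS2, EARS2, FARS2, HARS2, IARS2, LARS2, MARS2, NARS2, PARS2, RARS2, SARS2, TARS2, VARS2, WARS2 and YARS2 in mitochondria. All 36 passed the filter on low counts.

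The 60 mRNA libraries formed 20 groups of 3, and every group was treated for 24 h. A DMSO vehicle was the control and wortmannin at 10 µM, a PI3-kinase inhibitor, the positive control. The remaining groups received water extracts of 6 crude drugs. CR (Coptidis Rhizoma) was tested at 5.2, 26 and 130 µg/mL, and SR (Scutellariae Radix) at 9.2, 46 and 230 µg/mL, the top dose of each being its IC20 in the design text. Extract doses of 20, 100 and 500 µg/mL were used for PT (Pinelliae Tuber), for ZF (Zizyphi Fructus) and for both gingers, ZRR (Zingiberis Rhizoma Recens) and ZR (Zingiberis Rhizoma). The doses are called low, medium and high. The vehicle was 0.1% DMSO in the sample labels and 2% in the design text. Whether the 3 libraries of a group came from separate cultures is not stated in the labels, and the p-values therefore reflect the variation among these libraries, part of which may be technical.

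Each synthetase activity loads its own amino acid onto the matching tRNAs, which makes these enzymes the step that fixes the genetic code before the ribosome. The cytosolic and mitochondrial sets are encoded by separate nuclear genes for most amino acids, and a group of cytosolic enzymes is held together with scaffold proteins in the multi-synthetase complex. When charging fails, uncharged tRNA activates the kinase GCN2 (EIF2AK4), which phosphorylates eIF2 alpha and raises translation of the transcription factor ATF4. ATF4 is known to induce genes of amino acid synthesis and uptake and many cytosolic synthetase genes, which it binds through a composite element shared with C/EBP proteins. GARS1 and KARS1 serve both compartments. QARS1 has no mitochondrial twin, because mitochondria first load glutamate onto the glutamine tRNA with EARS2 and then amidate it.

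The libraries held 17420400 to 36479600 estimated counts, and 17129 genes were tested. All 8 A549 markers were at or above 1 CPM (the read count relative to the TMM-adjusted library size) in all 60 libraries, with EPCAM lowest at 3.67 to 7.44 CPM. The 4 blood cell markers reached at most 0.137 CPM. Of the fibroblast and endothelial markers, COL3A1 lay between 0.591 and 2.62 CPM and the other 3 at or under 0.184 CPM. COL3A1 was lower with CR high (log2 fold change -1.06), and its part in the results was not tested. How strongly log2 CPM depended on log2 length of the transcript, expressed as a regression slope, ran from 0.88 to 1.07 over the libraries, with the lowest values in ZR low replicate 3, ZF high replicate 2 and ZRR low replicate 2. Fits with this slope as a covariate are given with the dependence on processing.

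In vehicle cells the cytosolic enzymes were the more abundant class. Per transcript length (counts per base of the longest transcript, scaled to the same sum in every library), the cytosolic members had a median level of 113 and a range of 8.44 to 219, and the mitochondrial members a median of 21.5 and a range of 6.58 to 154. IARS1, the isoleucine enzyme, stood first at 219 ± 11.6 (SD, n = 3), followed by KARS1 for lysine at 213 ± 2.1 and GARS1 for glycine at 212 ± 7.32. These 3 did not differ beyond their spread. IARS2 was the highest mitochondrial member at 154 ± 5.81, next to NARS1 at 155 ± 5.41, and the second mitochondrial member, SARS2, reached 55.4 ± 1.92. CARS1 at 29.5 ± 0.981 and TARS3 (formerly TARSL2, a second cytosolic threonine enzyme) at 8.44 ± 0.352 were the cytosolic members below SARS2. This order depends on the transcript length used, which was 5732 bases for CARS1. Without regard to length, CARS1 read 69.1, 70.7 and 68.7 CPM in vehicle and SARS2 45.2, 45.4 and 49.8 CPM. At the bottom of the order FARS2 stood at 6.82 ± 0.127 and PARS2 at 6.58 ± 0.422. Summed over members and relative to the library totals, the cytosolic class took 2601 to 4874 CPM in the 60 libraries and the mitochondrial class 529 to 639 CPM.

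Since ATF4 target genes carry a composite element, the members' promoters were read for TGATGNAA or its other strand TTNCATCA. RefSeq windows of GRCh38.p14 from 250 bases before to 50 bases after the start site existed for 30 of the 36 members (16 cytosolic and 14 mitochondrial), and no window was in the table for AARS2, LARS1, TARS3, VARS1, VARS2 and YARS1. The element was in the windows of 7 cytosolic members and 1 mitochondrial member, against 3.62% of all 35116 windows of this length. Members with more than 1 window had more chances of a match. The cAMP response element TGACGTCA, in 1.85% of all windows, was in 0 member windows. The stretches below show the 8 matches, because they include several of the members with the largest changes. They read 5′ to 3′ on the gene's strand, with the element in capitals.
AARS1, chr16:70289675-70289704, minus strand: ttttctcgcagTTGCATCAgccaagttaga
CARS1, chr11:3057407-3057436, minus strand: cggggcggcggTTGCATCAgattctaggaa
GARS1, chr7:30594834-30594863, plus strand: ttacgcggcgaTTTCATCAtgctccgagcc
IARS1, chr9:92293692-92293721, minus strand: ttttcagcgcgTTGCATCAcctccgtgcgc
MARS1, chr12:57488053-57488082, plus strand: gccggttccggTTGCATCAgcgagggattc
NARS1, chr18:57621804-57621833, minus strand: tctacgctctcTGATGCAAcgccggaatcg
TARS1, chr5:33440956-33440985, plus strand: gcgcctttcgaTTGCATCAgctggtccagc
YARS2, chr12:32756076-32756105, minus strand: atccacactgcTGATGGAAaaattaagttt
In CARS1, MARS1, IARS1 and GARS1 the element began 2, 4, 13 and 33 bases before the start site. In TARS1 and NARS1 it began 2 and 14 bases after it, and in AARS1 and YARS2 it lay 187 and 197 bases upstream. A match is a description of these letters and does not show binding.

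Wortmannin lowered most of the cytosolic class. Of the 20 cytosolic members 16 fell and 2 rose, and of the 16 mitochondrial members 6 fell (EARS2, IARS2, LARS2, NARS2, SARS2 and YARS2). Among all genes tested 11.9% were called lower and 13.4% higher. The median log2 fold change was -0.41 for cytosolic and -0.14 for mitochondrial members, beside 0.01 for all genes. The sample codes of the vehicle libraries begin differently from those of all treated libraries, so anything that went with the code cannot be told apart from treatment in a comparison with vehicle. In bulk RNA, a change in the share of cells that carry a transcript cannot be told apart from a change per cell either.

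YARS1, the tyrosine enzyme, gave the largest difference. Its level was 172, 168 and 172 CPM in the vehicle libraries and 91.5, 89.9 and 84.7 CPM with wortmannin. All wortmannin libraries lay far below all vehicle libraries, and the edgeR quasi-likelihood test gave -0.95 ± 0.04 on the log2 scale (SE, adjusted p = 1.16e-25). MARS1, which charges methionine and so serves initiation as well as elongation, went from 279, 282 and 274 to 174, 159 and 161 CPM, a change of -0.76 ± 0.04. GARS1 stood at 227, 233 and 226 CPM in vehicle and at 138, 140 and 133 CPM with wortmannin, a change of -0.74 ± 0.04. CARS1, the cysteine enzyme, went from 69.1, 70.7 and 68.7 to 43.4, 41.6 and 40.6 CPM, a change of -0.73 ± 0.04. In each of these genes the groups were well apart. The other 12 cytosolic falls ran from -0.64 for AARS1 (alanine) to -0.16 for LARS1 (leucine), the latter lost without vehicle or wortmannin replicate 2.

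KARS1 fell by less, from 212, 209 and 215 to 156, 169 and 168 CPM (log2 fold change -0.37 ± 0.04, edgeR adjusted p = 5.52e-11). QARS1 for glutamine moved the other way, from 95.6, 92.8 and 105 to 121, 113 and 117 CPM, with no overlap between the groups (0.26 ± 0.05, edgeR adjusted p = 9.69e-05). TARS3 also rose, from 12.3, 12.9 and 12.3 to 14.6, 14.1 and 15.2 CPM (0.23 ± 0.07, edgeR adjusted p = 0.0184), a call lost without vehicle replicate 1 or 3 or wortmannin replicate 1 or 3. Thus the pair of cytosolic threonine enzymes split, with TARS1 at -0.45 ± 0.04. FARSA and FARSB, the alpha and beta subunits of the phenylalanine enzyme, had changes of -0.14 (not called) and -0.36 (called).

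Among mitochondrial enzymes the serine enzyme SARS2 went from 45.2, 45.4 and 49.8 to 37.4, 36.6 and 36.5 CPM, which was -0.34 ± 0.06 on the log2 scale (edgeR adjusted p = 1.26e-05). EARS2, which loads glutamate, went from 54.4, 53.9 and 50.2 to 43.2, 42.1 and 41.3 CPM, a change of -0.32 ± 0.06. Both had all treated libraries below all vehicle libraries. The mitochondrial partners of the named cytosolic enzymes were YARS2 at -0.23 ± 0.07 (called, but not without vehicle replicate 2 or 3 or wortmannin replicate 2), MARS2 at 20.4 ± 0.601 against 22.4 ± 1.09 CPM in vehicle (not called) and CARS2 at 28.4 ± 1.57 against 29.2 ± 0.754 CPM (not called). NARS2 lost its call without wortmannin replicate 3.

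**Figure D1:**
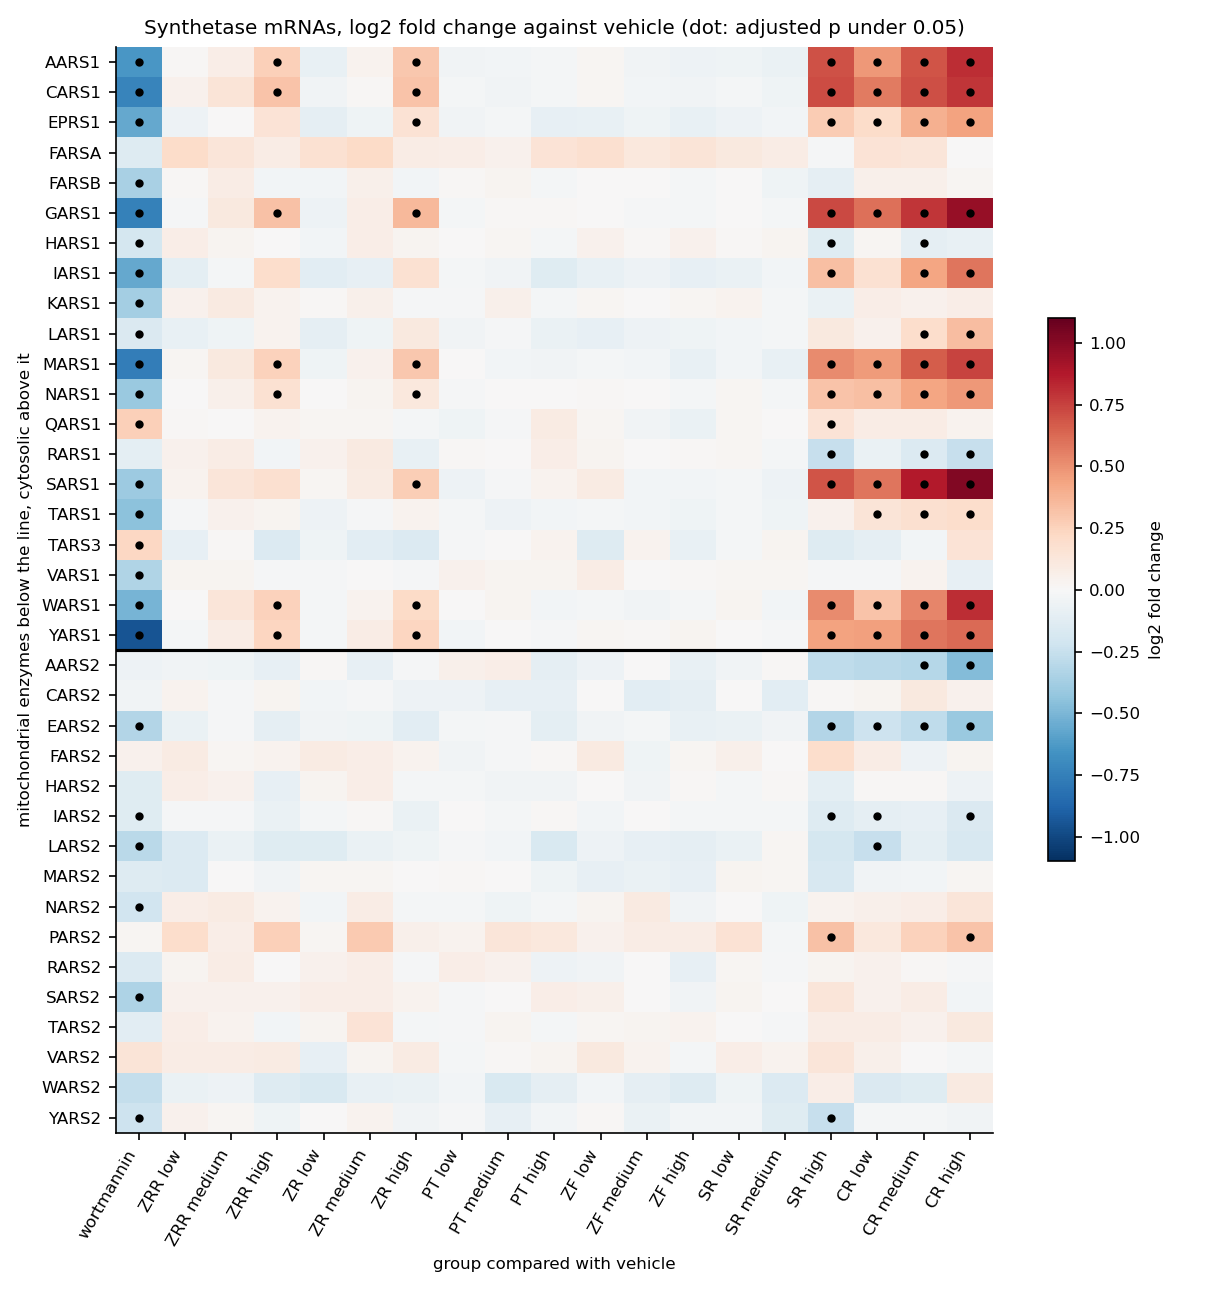
Log2 fold change of the 36 members (rows, cytosolic above the line and mitochondrial below) in each of the 19 treated groups (columns) against vehicle, with a dot where the edgeR adjusted p was under 0.05. Most cells of cytosolic genes are blue in the wortmannin column, where QARS1 and TARS3 are red. Red cells prevail among these genes in the columns of CR, SR high and, paler, ZRR high and ZR high. Some are blue there, such as RARS1 with CR high and SR high.

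Coptidis Rhizoma raised most cytosolic enzymes and few mitochondrial ones. At 130 µg/mL 12 cytosolic members rose and RARS1 fell, and of the mitochondrial members PARS2 rose and AARS2, EARS2 and IARS2 fell. Over all genes 18.5% were called higher and 16.7% lower. The median log2 fold change was 0.39 for the cytosolic class, -0.01 for the mitochondrial class and 0.01 for all genes.

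SARS1, the cytosolic serine enzyme, changed most. Its libraries read 85.7, 81.8 and 85.6 CPM with vehicle and 168, 175 and 171 CPM with CR high. Every treated library was above every vehicle library, and the log2 fold change was 1.02 ± 0.06 (edgeR adjusted p = 5.82e-19). GARS1 rose from 227, 233 and 226 to 432, 464 and 434 CPM (0.96 ± 0.04, edgeR adjusted p = 8.4e-26). AARS1 rose from 288, 284 and 281 to 490, 500 and 507 CPM (0.81 ± 0.04). WARS1, the tryptophan enzyme and a gene that interferon induces, rose from 136, 130 and 129 to 225, 233 and 232 CPM (0.81 ± 0.04). The groups did not overlap in any of these genes. Further rises were CARS1 at 0.79, MARS1 at 0.74, YARS1 at 0.62, IARS1 at 0.59, NARS1 for asparagine at 0.48, EPRS1 for glutamate and proline at 0.44, LARS1 at 0.34 and TARS1 at 0.19.

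MARS1 shares 982 bases with DDIT3, a stress-induced gene on the opposite strand, and no source used here gives the strand setting of the counting. DDIT3 went from 8.42 ± 1.13 CPM in vehicle to 38.7 ± 1.21 CPM with CR high, while MARS1 went from 278 ± 3.8 to 466 ± 4.72 CPM. HARS1 and HARS2, neighbours for histidine in the cytosol and in mitochondria, share 437 bases on opposite strands, so reads there could be assigned to either. YARS2 shares 18161 bases with DNM1L (mean 154 CPM), YARS1 1387 with S100PBP (27.6 CPM), KARS1 858 with TERF2IP (29.2 CPM), EARS2 370 with UBFD1 (103 CPM) and SARS2 349 with MRPS12 (155 CPM), all on opposite strands. VARS2 shares 5865 bases with GTF2H4 and HARS2 639 with ZMAT2 on the same strand. The part of shared reads in the differences of these genes was not tested.

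Several cytosolic enzymes did not follow. KARS1 read 218, 224 and 227 CPM with CR high, against 212, 209 and 215 CPM in vehicle, and did not pass the test (0.07 ± 0.04, edgeR adjusted p = 0.121). QARS1 (102, 97.6 and 101 CPM) overlapped with vehicle. TARS3 (14.2, 13.1 and 14.4 CPM) lay above the vehicle libraries without passing (0.15 ± 0.07, edgeR adjusted p = 0.108). HARS1 (83.9, 89 and 87 CPM) lay below them without passing (-0.08 ± 0.03). FARSA, FARSB and VARS1 were not called by edgeR either. DESeq2, and edgeR with the size factors of DESeq2 or with the length slope as a covariate, called HARS1 and VARS1 lower with CR high. RARS1, the arginine enzyme, fell from 161, 163 and 167 to 134, 139 and 137 CPM with all treated libraries lower (-0.25 ± 0.06, edgeR adjusted p = 0.0003).

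On the mitochondrial side AARS2, the partner of AARS1, fell from 13.2, 12.2 and 11.7 to 8.36, 9.3 and 8.97 CPM (-0.48 ± 0.11, edgeR adjusted p = 0.000426). EARS2 fell from 54.4, 53.9 and 50.2 to 39.7, 40.3 and 39.6 CPM (-0.41 ± 0.06, edgeR adjusted p = 4.52e-08). Neither gene's groups overlapped. SARS2 read 45.6, 44.8 and 47 CPM and WARS2 11.2, 9.65 and 12.2 CPM, both overlapping with vehicle and not called. PARS2, the mitochondrial proline enzyme, went from 6.69, 5.88 and 6.46 to 7.68, 7.55 and 8.43 CPM (0.31 ± 0.11, edgeR adjusted p = 0.0274), a call lost without vehicle replicate 2 or CR high replicate 3. PARS2 had a positive difference in 18 of the 19 comparisons with vehicle, which all rest on the same 3 vehicle libraries, and against CR low its difference was 0.19 ± 0.11 (edgeR adjusted p = 0.226).

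**Figure D2:**
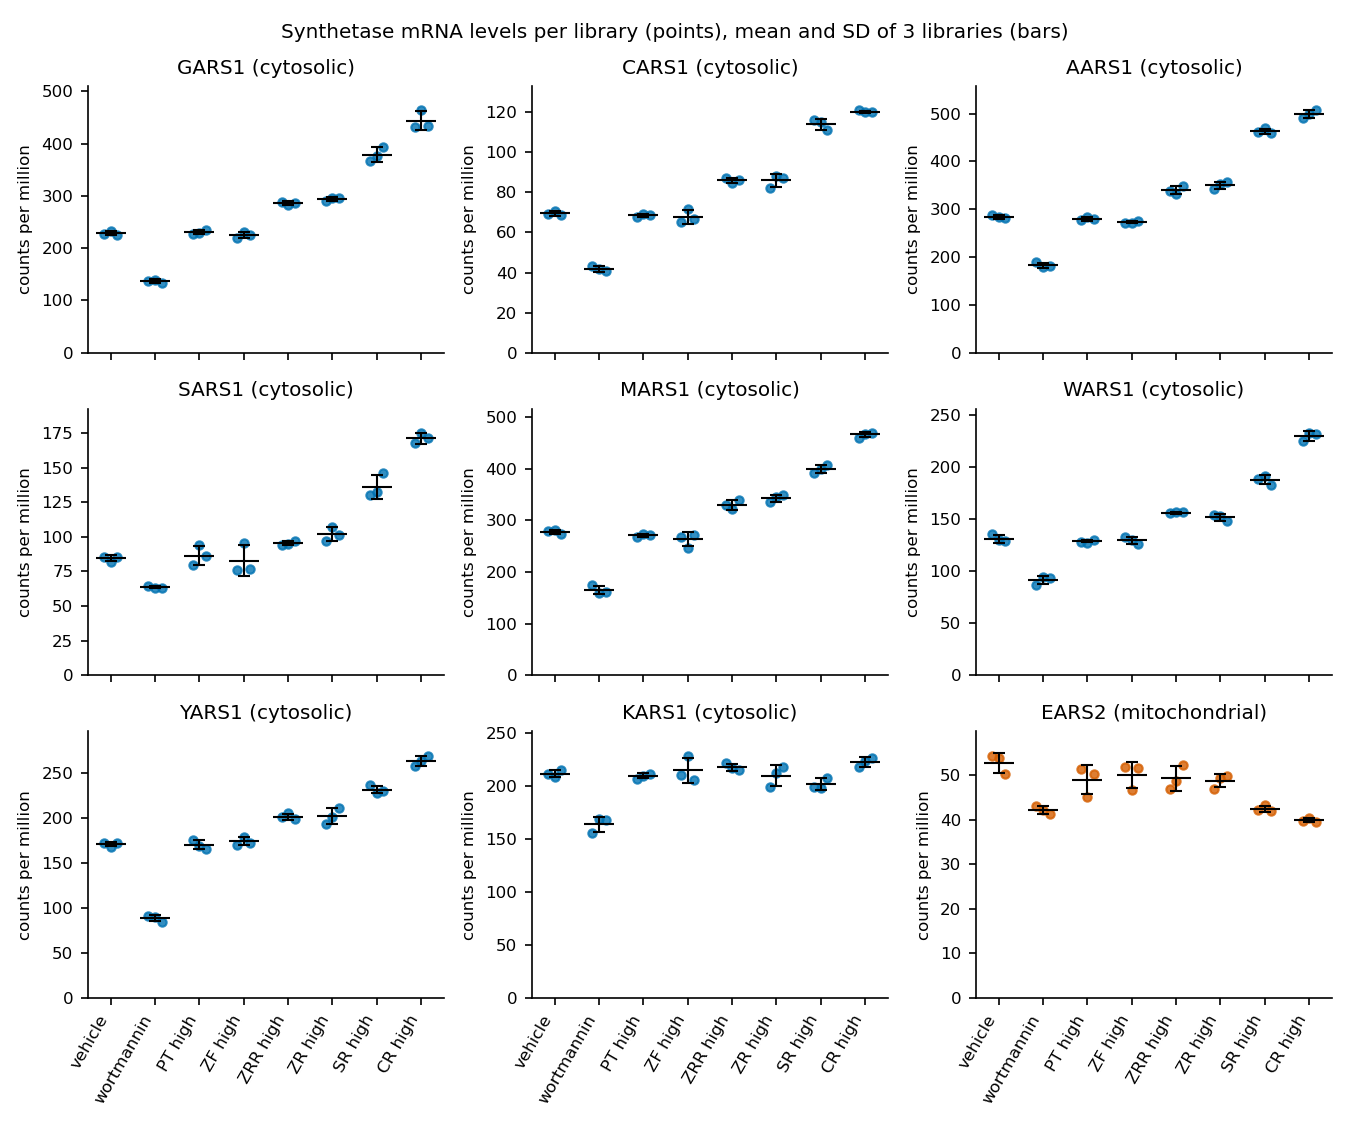
Normalised read counts (CPM, axis from 0) of 9 members in each library of vehicle, wortmannin and the 6 high doses, as points, with the mean and SD of 3 libraries. GARS1 stood at 444 CPM with CR high, 229 CPM with vehicle and 137 CPM with wortmannin, while EARS2 was lowest with CR high at 39.9 CPM.

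The response to CR was present at its lowest dose. At 5.2 µg/mL 10 cytosolic members rose (background 8.51% of genes called higher), and EARS2, LARS2 and IARS2 fell (background 9.15% called lower). At 26 µg/mL 12 cytosolic members rose (background 12.1%), and RARS1, HARS1, AARS2 and EARS2 fell (background 11.1%). The cytosolic medians were 0.16, 0.29 and 0.39 from the low to the high dose, and the mitochondrial medians 0.02, -0.01 and -0.01. GARS1 read 345, 366 and 336 CPM at 5.2 µg/mL, 387, 410 and 390 CPM at 26 µg/mL and 432, 464 and 434 CPM at 130 µg/mL. These 3 sets of libraries did not overlap. The falls of IARS2 at the low dose and of RARS1 at the medium dose were each lost without any single one of their 6 libraries. LARS2 lost its call without vehicle replicate 1 or 2 or CR low replicate 2 or 3. With the length slope as covariate EARS2 and LARS2 lost their calls at the low dose, and IARS1, LARS1 and RARS1 gained one. A fit on only the 6 libraries compared lost EPRS1, TARS1, IARS2 and LARS2 there, and DESeq2 gained AARS2 and IARS1. At the medium dose AARS2 lost its call without vehicle replicate 1 or 2 or CR medium replicate 1 or 3, HARS1 without vehicle replicate 1 or CR medium replicate 1 or 2, and LARS1 without CR medium replicate 2. The difference of the class medians at the low dose was 0.14 and ranged from 0.10 without CR low replicate 2 to 0.21 without CR low replicate 3.

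High against low dose of CR compares libraries with the same first number in their codes and does not use the vehicle. There 13 members rose (12 cytosolic and WARS2), with 13.1% of all genes called higher, and RARS1, HARS1 and EARS2 fell, with 12.3% called lower. WARS1 had the largest step, from 165, 169 and 154 to 225, 233 and 232 CPM (0.50 ± 0.04, edgeR adjusted p = 4.76e-15), followed by SARS1 at 0.43 ± 0.06 and IARS1 at 0.42 ± 0.06. YARS1 changed least among the cytosolic rises after NARS1, by 0.17 against 0.15. TARS3 rose from 12.3, 12.1 and 10.7 to 14.2, 13.1 and 14.4 CPM (0.25 ± 0.07, edgeR adjusted p = 0.0101). The calls of TARS3 and WARS2 were lost without CR high replicate 1 or 3 or CR low replicate 3, and that of WARS2 also without CR low replicate 1 and under DESeq2. HARS1 lost its call without CR high replicate 1 or CR low replicate 1 or 3, EARS2 without CR low replicate 1 or 2, and RARS1 without CR low replicate 3.

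**Figure D3:**
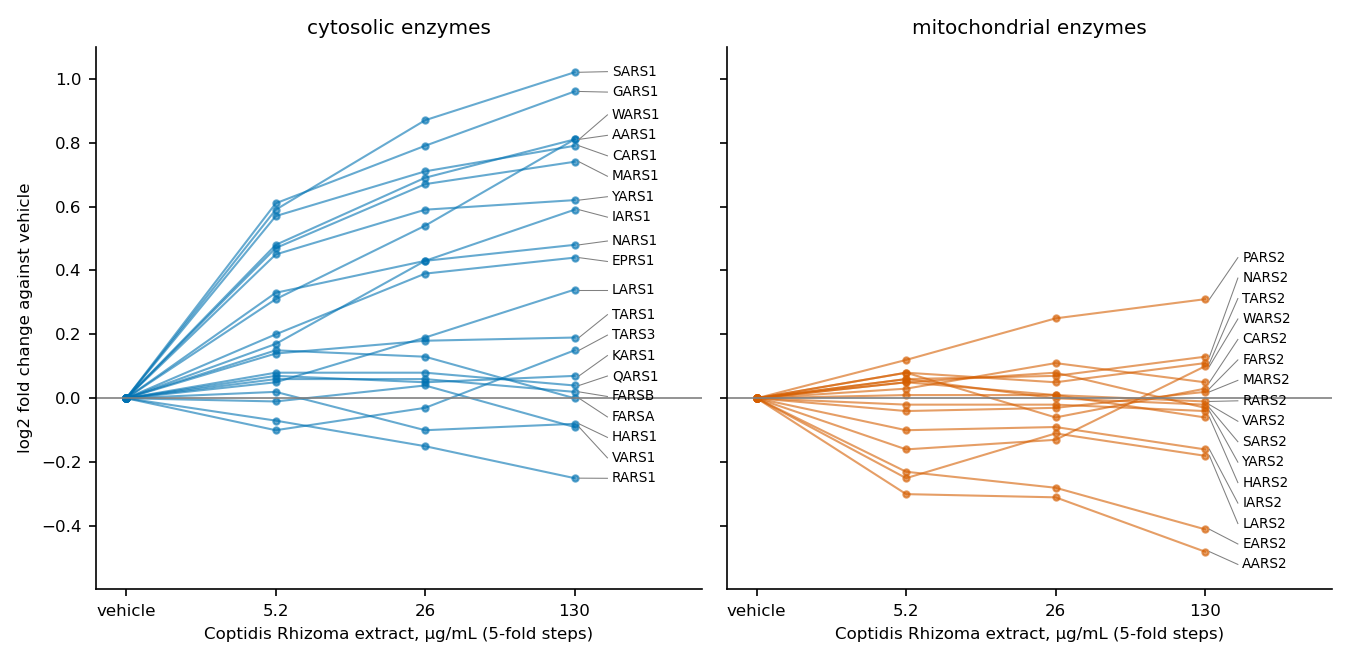
Log2 fold change against vehicle of each cytosolic (left) and mitochondrial (right) member at 5.2, 26 and 130 µg/mL of the CR extract, 1 line per gene. SARS1 went from 0.59 to 1.02 and WARS1 from 0.31 to 0.81 between the lowest and the highest dose, while RARS1, EARS2 and AARS2 ran downwards.

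Scutellariae Radix changed the class at its highest dose. At 230 µg/mL 11 cytosolic members rose and RARS1 and HARS1 fell, and in mitochondria PARS2 rose and EARS2, IARS2 and YARS2 fell. Of all genes 13.0% were called higher and 10.9% lower. The medians were 0.21 for the cytosolic class, 0.02 for the mitochondrial class and 0.01 for all genes.

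GARS1 rose from 227, 233 and 226 to 366, 377 and 393 CPM (0.73 ± 0.04, edgeR adjusted p = 5.84e-21). CARS1 rose from 69.1, 70.7 and 68.7 to 116, 115 and 111 CPM (0.72 ± 0.04), and AARS1 from 288, 284 and 281 to 461, 469 and 459 CPM (0.70 ± 0.04). SARS1 rose from 85.7, 81.8 and 85.6 to 130, 132 and 146 CPM (0.69 ± 0.06). These groups lay apart in every library. WARS1 read 189, 192 and 183 CPM, above all vehicle libraries (0.52 ± 0.04), and the other rises were MARS1 at 0.52, YARS1 at 0.44, IARS1 at 0.33, NARS1 at 0.31, EPRS1 at 0.28 and QARS1 at 0.15. The call of QARS1 (106, 107 and 111 CPM) was lost without vehicle replicate 1 or 2 or SR high replicate 3.

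EARS2 fell to 42.1, 43.3 and 41.9 CPM with SR high, below all vehicle libraries (-0.32 ± 0.06, edgeR adjusted p = 1.65e-05). PARS2 read 8.2, 7.22 and 8.22 CPM, above vehicle (0.32 ± 0.12, edgeR adjusted p = 0.0414), but its call was lost without any of 4 single libraries (vehicle replicates 2 and 3 and SR high replicates 1 and 3). HARS1 read 85.6, 81.5 and 82.3 CPM, below vehicle (-0.13 ± 0.03), and HARS2 37.8, 35.6 and 39.6 CPM, overlapping with it (not called). KARS1 (199, 198 and 208 CPM) and TARS3 (10.3, 11.7 and 12.1 CPM) lay below vehicle and did not pass. The partners AARS2 (9.71, 10.7 and 10.1 CPM, edgeR adjusted p = 0.0574), CARS2 (28.5, 29.8 and 30.3 CPM) and SARS2 (47.8, 55 and 51.1 CPM) did not pass in edgeR either. DESeq2 called AARS2 lower, as did edgeR in a fit of the 6 libraries alone, in one of all but the 3 libraries with the lowest slope, and in one scaled by DESeq2's size factors. The fall of YARS2 was lost without vehicle replicate 3 or SR high replicate 1 or 2, and that of HARS1 without vehicle replicate 1.

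Against SR at 9.2 µg/mL, within one first number of the codes, 10 cytosolic members rose (background 11.1% of genes called higher) and 7 members fell (KARS1, RARS1, HARS1, EARS2, IARS2, MARS2 and YARS2, background 9.36%). AARS1 rose from 272, 273 and 277 to 461, 469 and 459 CPM (0.76 ± 0.04, edgeR adjusted p = 2.17e-22), and RARS1 had a change of -0.27 ± 0.06. The calls of KARS1, MARS2, IARS2 and YARS2 each depended on single libraries, IARS2 on SR high replicate 2 or 3 or SR low replicate 3 and the others on 4 or 5 of the 6. PARS2 was not called there (0.16 ± 0.12).

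Both gingers raised a smaller part of the cytosolic class by smaller amounts. At 500 µg/mL ZRR raised 7 cytosolic members (AARS1, CARS1, GARS1, MARS1, NARS1, WARS1 and YARS1), and the other 29 members did not pass the edgeR test. DESeq2 called EPRS1 as well, and EPRS1, IARS1 and SARS1 were added (10 calls) in 3 further edgeR fits, those of the 6 libraries alone, of all but the 3 libraries with the lowest slope, and of all libraries with the slope as a covariate. Among all genes 2.25% were called higher and 1.77% lower. ZR at the same dose raised 9 cytosolic members (these 7 with EPRS1 and SARS1), with 2.91% of genes called higher and 2.44% lower. Both comparisons share the vehicle libraries. The cytosolic medians were 0.12 with ZRR and 0.11 with ZR, and the mitochondrial medians -0.03 and -0.02.

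GARS1 read 289, 282 and 286 CPM with ZRR (0.32 ± 0.04, edgeR adjusted p = 2.18e-08) and 290, 296 and 297 CPM with ZR (0.36 ± 0.04, edgeR adjusted p = 5.05e-10). All 6 values were above the vehicle libraries at 227, 233 and 226 CPM. CARS1 read 87.1, 84.8 and 86 CPM with ZRR (0.31 ± 0.04) and 82.4, 88.3 and 87.4 CPM with ZR (0.31 ± 0.04), again above vehicle throughout. AARS1 read 339, 332 and 349 CPM with ZRR (0.26 ± 0.04) and 342, 352 and 357 CPM with ZR (0.30 ± 0.04). WARS1 read 156, 157 and 157 CPM with ZRR (0.25 ± 0.04) and MARS1 335, 345 and 348 CPM with ZR (0.30 ± 0.04). None of these groups overlapped with vehicle. With ZR the calls of NARS1, EPRS1 and SARS1 were all lost without ZR high replicate 2, which left 6 calls. NARS1 was also lost without ZR high replicate 3 or any single vehicle library, and EPRS1 without vehicle replicate 3 or ZR high replicate 1.

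Against vehicle, no mitochondrial member passed with either ginger at 500 µg/mL under edgeR or DESeq2, while 2 with ZRR and 1 with ZR had an unadjusted edgeR p under 0.05 (14.6% and 15.7% of all genes). Among the fixed genes, KARS1 read 222, 217 and 215 CPM with ZRR and 199, 213 and 218 CPM with ZR, which was not called. TARS3 read 11.5, 11.6 and 10.9 CPM with ZR, below all vehicle libraries but not called, and HARS2 39.4, 40.8 and 39.8 CPM, within their range. The mitochondrial partners AARS2, CARS2 and WARS2 with ZRR, and AARS2, CARS2 and MARS2 with ZR, overlapped with vehicle. QARS1 (102, 102 and 96.7 CPM with ZRR) and HARS1 (89.1, 93.1 and 92.1 CPM) overlapped with vehicle too.

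Against their own low dose of 20 µg/mL, ZRR raised 9 cytosolic members (background 2.47% of genes called higher and 1.70% lower) and ZR raised 10 (background 2.46% and 2.18%). IARS1 was called in both of these comparisons, at 0.30 ± 0.06 and 0.28 ± 0.06, with ZR not without ZR low replicate 3. DESeq2 also called HARS2 lower with ZRR. SARS1 with ZR lost its call without ZR high replicate 2 or ZR low replicate 1 or 2, LARS1 with ZR without ZR low replicate 3, and NARS1 with ZRR without ZRR low replicate 1. In a fit on only the 6 libraries compared, 1 member (GARS1) was called in each. Set directly against each other at 500 µg/mL, ZRR and ZR gave differences of -0.09 to 0.20 in the members. In this comparison 0 of 36 were called by edgeR (background 0.712% of genes) and 0 by DESeq2, and 0 had an unadjusted edgeR p under 0.05. The largest difference, 0.20 ± 0.12, was that of PARS2.

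High against low dose gives comparisons of CR, SR, ZR and ZRR that share no library. The cytosolic members called higher in all 4 were AARS1, CARS1, EPRS1, GARS1, IARS1, MARS1, WARS1 and YARS1, which are 8 of 13 with CR, 8 of 10 with SR, 8 of 10 with ZR and 8 of 9 with ZRR. Over all genes 141 were higher in all 4, which are 6.27% of those higher with CR, 7.44% with SR, 33.5% with ZR and 33.3% with ZRR. Of the 22 members that wortmannin lowered, 11 (50%) rose from low to high CR and 10 (45.5%) from low to high SR. Of all 2045 genes that wortmannin lowered, 14.4% rose from low to high CR and 12.9% from low to high SR.

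No synthetase passed the test with Pinelliae Tuber or Zizyphi Fructus, or with the lower doses of SR and of the gingers. At 500 µg/mL, edgeR called 0 members with PT (background 1.40% of genes) and 0 with ZF (background 0.00584%), and 3 and 2 members had an unadjusted p under 0.05, beside 17.8% and 10.8% of all genes. GARS1 read 228, 230 and 235 CPM with PT and 220, 231 and 225 CPM with ZF, mixed with the vehicle values. The members' log2 fold changes ran from -0.17 to 0.15 with PT high and from -0.14 to 0.14 with ZF high. At the medium dose edgeR called 0 members with ZRR (background 0.280%), ZR (0.922%), PT (0.0175%), SR (0.00%) and ZF (0.0117%), where 9, 5, 0, 2 and 1 had an unadjusted p under 0.05. The share of all genes with such a p was 15.2%, 25.7%, 4.12%, 4.22% and 6.57%, and the 9 members with ZRR were all cytosolic. At the low dose it called 0 with ZRR (0.111%), ZR (0.00584%), PT (0.00%), SR (0.00584%) and ZF (0.0117%), where 2, 3, 0, 0 and 2 had an unadjusted p under 0.05, beside 3061, 1648, 557, 903 and 1888 of all 17129 genes. From low to high dose edgeR called 0 with PT (background 0.549%) and 0 with ZF (0.00%), where 2 and 1 had an unadjusted p under 0.05, beside 11.6% and 2.32% of all genes. DESeq2 also called 0 members in each of these 14 comparisons. With ZRR at 100 µg/mL, GARS1 read 254, 240 and 249 CPM and CARS1 78.5, 72.1 and 78.6 CPM, above all vehicle libraries, and a fit on only the 6 libraries called 4 members (CARS1, GARS1, SARS1 and WARS1).

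**Figure D4:**
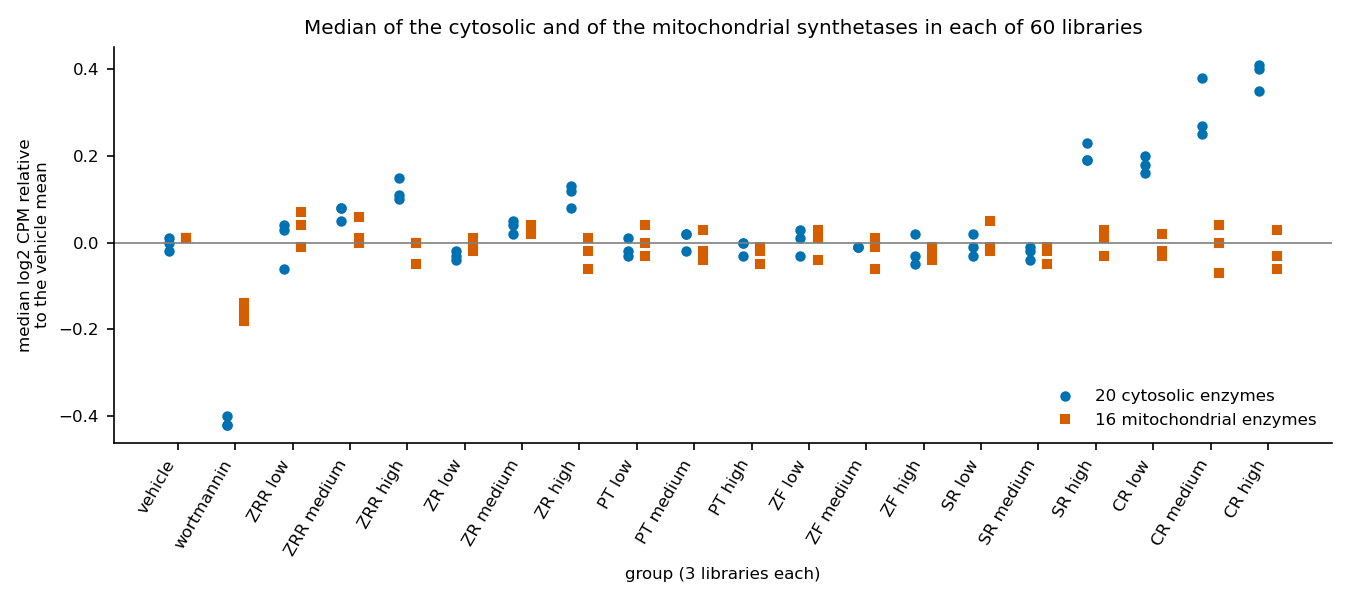
Median log2 CPM relative to the vehicle mean over the 20 cytosolic (circles) and the 16 mitochondrial members (squares) in each of 60 libraries. The cytosolic medians of the 3 CR high libraries lie at 0.35 to 0.41 and those of wortmannin at -0.42 to -0.40, while the mitochondrial medians lie at -0.06 to 0.03 and at -0.18 to -0.14.

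The contrast between compartments was visible in single libraries. The cytosolic minus the mitochondrial median was 0.37 to 0.48 in the CR high libraries, 0.15 to 0.23 with SR high, 0.11 to 0.16 with ZRR high, 0.12 to 0.15 with ZR high and -0.27 to -0.24 with wortmannin. In the vehicle libraries it was -0.02 to 0.00. With PT high it was 0.01 to 0.02 and with ZF high 0.00 to 0.03.

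The ratio of both enzymes for 1 amino acid showed which pairs parted. The log2 ratio of AARS1 to AARS2 was 4.45, 4.53 and 4.59 in vehicle and 5.87, 5.75 and 5.82 with CR high, a difference of 1.29. For SARS1 to SARS2 it went from 0.92, 0.85 and 0.78 to 1.88, 1.97 and 1.86, a difference of 1.05, and for EPRS1 to EARS2 from 2.19, 2.19 and 2.18 to 2.99, 3.04 and 3.06, a difference of 0.84. In these pairs no CR high library overlapped with vehicle. Wortmannin lowered the ratio of YARS1 to YARS2 by most, from 2.21, 2.13 and 2.11 to 1.45, 1.51 and 1.32, a difference of -0.72. It left that of SARS1 to SARS2 at 0.79, 0.79 and 0.79, within the vehicle range, since both enzymes were lower. HARS1 to HARS2 (1.06, 1.25 and 1.14 with CR high, 1.25, 1.13 and 1.12 in vehicle) overlapped with vehicle in wortmannin and in each high dose. RARS1 to RARS2 was below vehicle with CR high and SR high, by -0.24 and -0.28.

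**Figure D5:**
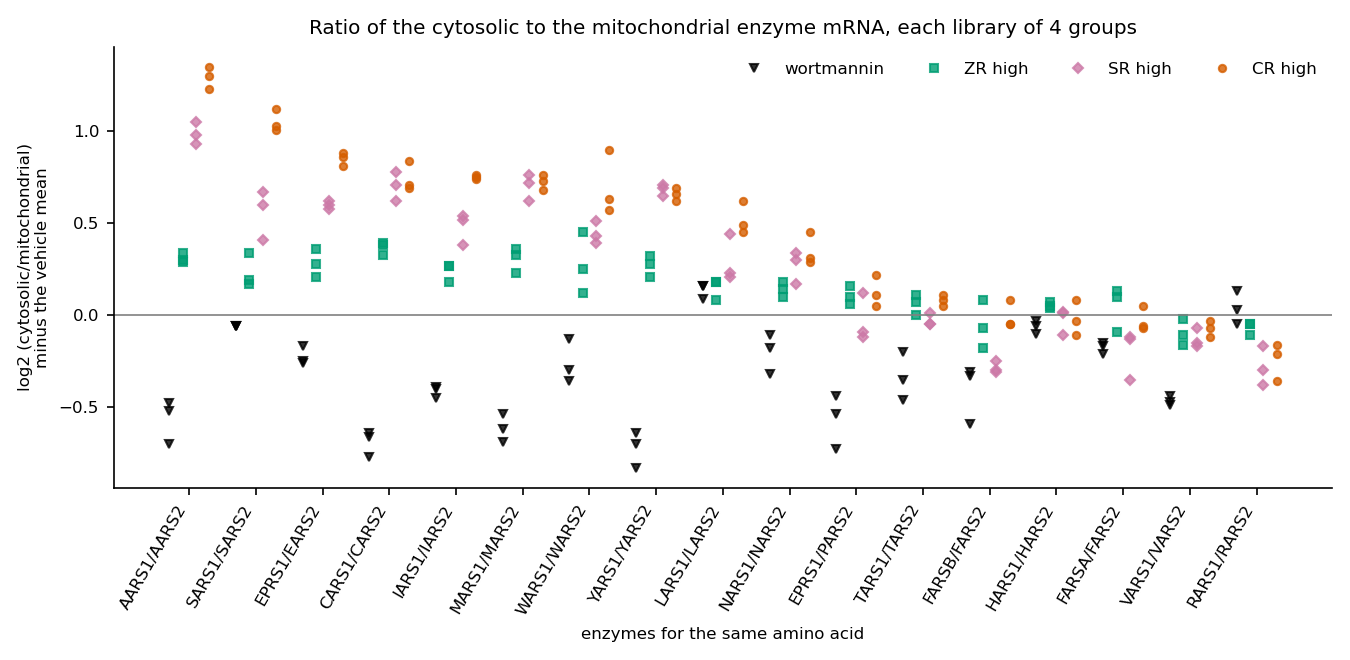
Log2 ratio of the cytosolic to the mitochondrial enzyme for the same amino acid, minus the vehicle mean, in each library of wortmannin, ZR high, SR high and CR high. AARS1/AARS2 stands highest with CR high (a mean difference of 1.29) and RARS1/RARS2 lowest (-0.24).

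Members of the multi-synthetase complex (EPRS1, IARS1, LARS1, MARS1, QARS1, RARS1 and KARS1) were mixed. With CR high 4 of the 7 rose and 1 fell (median 0.34), while of the other 13 cytosolic enzymes 8 rose (median 0.48). With SR high 4 of 7 rose and 1 fell (median 0.15), and of the other 13, 7 rose and 1 fell (median 0.31). With wortmannin 5 of 7 fell and 1 rose (median -0.37), and of the other 13, 11 fell and 1 rose (median -0.41). Over all genes, 18.5% were called higher and 16.7% lower with CR high, 13.0% and 10.9% with SR high, and 13.4% and 11.9% with wortmannin. The 3 scaffold genes of the complex (AIMP1, AIMP2 and EEF1E1) all fell with wortmannin, AIMP2 by 0.42 on the log2 scale, and edgeR called none of them with CR high or SR high.

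Of the 16 cytosolic members with a promoter window, the 7 with the composite element shown above all rose with CR high (18.5% of all genes called higher). Of the 9 without it, EPRS1, SARS1 and WARS1 rose and RARS1 fell, and LARS1 and YARS1, which have no window in the table, rose too. With SR high 6 of the 7 and 4 of the 9 rose (13.0% of all genes), and with ZR high 5 of the 7 and 3 of the 9 (2.91%). With wortmannin the 7 all fell (11.9% of all genes), and of the 9 without the element 6 fell and 1 rose. The difference between these sets was not tested. SARS1, the gene with the largest rise, had no match in its window, which says only that these letters are not there. YARS2, the mitochondrial member with a match, was not called with CR high or ZR high. It fell with SR high and with wortmannin, and each of these calls was lost without some single libraries.

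Other genes of the same pathways were counted from fixed lists that were drawn up with earlier results of these data known. In a panel of 10 genes of the ATF4 axis, 9 rose with CR high, 10 with SR high, 9 with ZRR high and 8 with ZR high, and 9 fell with wortmannin. Over all genes 18.5%, 13.0%, 2.25% and 2.91% were called higher with these 4 extracts and 11.9% lower with wortmannin. ATF4 itself had log2 fold changes of 0.53 ± 0.08 with CR high and -0.57 ± 0.08 with wortmannin, and TRIB3, a pseudokinase that it induces, 2.34 ± 0.07 and -0.71 ± 0.07. Of 9 genes of uncharged tRNA sensing and eIF2 alpha phosphorylation, 3 rose and 1 fell with CR high, where 18.5% of all genes were called higher and 16.7% lower. Among them EIF2AK4 had a log2 fold change of 0.19 ± 0.07 and PPP1R15A, the inducible subunit of the eIF2 alpha phosphatase, one of 1.48 ± 0.06. Of the 6 genes of an interferon panel 4 were tested, and edgeR called 0 of them with CR high and 0 with SR high. With wortmannin, where WARS1 fell, 3 of the 4 rose (13.4% of all genes called higher), and 1 rose with each ginger at the high dose. The part of interferon in the changes of WARS1 was not tested.

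Cytosolic elongation factors rose with CR high in 5 of 5 cases (EEF1A1 by 0.43 ± 0.08, EEF2 by 0.33 ± 0.05), in 2 of 5 with SR high and in 1 of 5 with wortmannin, where 18.5%, 13.0% and 13.4% of all genes were called higher. Of 4 mitochondrial elongation factors, edgeR called 0 with CR high, 2 fell with SR high, and 2 fell with wortmannin (GFM1 and TUFM). Over all genes 18.5% were called higher and 16.7% lower with CR high, and 10.9% and 11.9% lower with SR high and wortmannin. Of 11 genes for mitochondrial tRNA amidation, formylation and modification, 5 rose and 3 fell with CR high (18.5% and 16.7% of all genes). Of the same 11, 2 rose and 4 fell with SR high (13.0% and 10.9% of all genes), and 7 fell with wortmannin (11.9%). In CR high the thiouridylase TRMU was lowest at -0.52 ± 0.06 and the pseudouridine synthase PUS1 highest at 0.60 ± 0.08.

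The share of all genes called in none of the 19 comparisons with vehicle was not counted. Across these 19 comparisons edgeR called 9 members in none. They were FARSA in the cytosol and CARS2, FARS2, HARS2, MARS2, RARS2, TARS2, VARS2 and WARS2 in mitochondria. DESeq2 called 4 of these lower, HARS2, RARS2 and WARS2 with wortmannin and MARS2 with SR high. Against vehicle, edgeR called FARSB, KARS1 and VARS1 with wortmannin and with no extract, while DESeq2 also called FARSB lower with SR high and VARS1 lower with CR high.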

How the data were processed

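RNA-seq libraries of A549 cells were analysed from the deposited estimated counts per gene, which the authors made with RSEM 1.3.3 after STAR 2.7.3a, Trim Galore 0.6.5 and FastQC 0.11.9 on GRCh38, per the submitters' processing notes. No source used here gives the annotation release or the strand setting, although the labels' protocols name a directional kit with paired 100-base reads. Of 269 columns 60 carry labels of this series, and 209 were not used. Counts were rounded, and identifiers with no name (3620, 0.0579% of counts) were no members. The members and all lists were chosen with earlier results of these data known.

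edgeR 4.0.16 (R 4.3.3, TMM, filterByExpr by group, robust quasi-likelihood) was fitted to all 60 libraries with 1 column per group, 40 residual degrees of freedom and a common biological coefficient of variation of 7.04%. A gene was called where its p, adjusted by Benjamini and Hochberg over all 17129 tested genes, was under 0.05, and "rose" and "fell" mean called. CPM values used the TMM-adjusted library sizes, except those of the markers and of the members summed by class, which used library totals. The SE is the log2 fold change divided by the square root of F. Groups came from the labels. Values per library were given, in wortmannin and each high dose, for up to 4 cytosolic and 2 mitochondrial called members with the largest change and no overlap between groups, for their mitochondrial partners, and for GARS1, KARS1, QARS1, WARS1, TARS3, HARS1 and HARS2. Alternatives were DESeq2 1.42.0 and its size factors, no filter, only the libraries compared, a replicate block, length slope as covariate and each library left out. A fit without the 3 libraries of lowest length slope was added after seeing the data. The fit was run on data simulated for wortmannin against vehicle, which does not test the other comparisons. Within groups no library was a duplicate of another (0 identical, smallest chi-square per degree of freedom 2.2). Libraries of different groups were not compared in this way.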

Additional observations from a re-analysis of the deposited data

How the results depend on the processing

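Among the values of single named members, 851 stayed on the same side of the threshold over the alternatives, 11 gained a call and 22 lost one. No called member changed sign in any alternative, while the direction of values not called was not compared. Of the counts of called members and differences of class medians, 652 stayed within bounds, 23 moved and 1 reversed. With the length slope as covariate, the cytosolic minus mitochondrial median became 0.45 for CR high, 0.36 for CR medium, 0.25 for CR low, 0.13 for ZRR high against low, 0.01 for ZRR medium and 0.01 for ZRR low, where it had been below 0, and 2 members were called with ZRR medium. Without the 3 libraries of lowest slope, 1 member was called with ZRR medium (CARS1) and 1 with ZR medium (FARSA). With only the libraries compared, 4 were called with ZRR medium, 1 with ZR medium (also 1 with no filter on low counts) and 1 each for ZRR and ZR high against low, where all libraries gave 9 and 10. The cause was not tested. Leaving out single libraries, the difference of medians ranged from 0.36 to 0.44 for CR high, 0.27 to 0.36 for CR medium, 0.10 to 0.21 for CR low, 0.19 to 0.22 for SR high, -0.07 to -0.02 for ZRR low, 0.19 to 0.24 for SR high against low and 0.19 to 0.24 for CR high against low. Counts of called members ranged from 22 to 24 with wortmannin, 16 to 18 with CR high, 13 to 15 with CR medium, 11 to 14 with CR low, 15 to 18 with SR high, 7 to 8 with ZRR high and 6 to 8 with ZR high.

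Replicate numbers are shared between groups, but in 0 of 26 comparisons did all 3 same-numbered pairs correlate above 0.1, so the numbers were not taken as pairs. A replicate block gave 24 calls with wortmannin, 17 with CR high, 18 with SR high (FARSB gained) and 12 with CR low (IARS2 lost). Members of low level, such as PARS2 at 6.34 ± 0.415 CPM and AARS2 at 12.4 ± 0.757 CPM in vehicle, had standard errors of 0.11 to 0.12 and limit what differences can be seen there. The table holds sums over gene models, so a change of isoform use cannot be told from it.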
